A study of Mus with 8 samples.

Results

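Annexins are proteins that bind acidic phospholipids of cell membranes when calcium rises, through a conserved core of repeats, while their variable N-terminal tails bind partners such as the small calcium-binding S100 proteins. They take part in membrane repair, vesicle traffic, the link between membrane and actin, and plasminogen activation at the cell surface. In the fat cell lineage, annexin A2 has been linked to the traffic of glucose transporter vesicles, and annexin A6 to cholesterol handling. The 10 annexin genes described here (Anxa1, Anxa2, Anxa3, Anxa4, Anxa5, Anxa6, Anxa7, Anxa8, Anxa9 and Anxa11) were found by gene symbol among the 24013 genes of a count table, and all 10 passed the filter on low counts, as did 13339 genes in all. The list was made with earlier results of these same libraries known and is treated here as selected on the CPM levels and the ratios of all 4 comparisons, so the values and calls are a description and no independent evidence that annexins respond as a family. Anxa10 and Anxa13 were also in the table but not on the list. Anxa10 had at most 1 count in a library and Anxa13 at most 2, which is below the limit of 3 counts used here for detection.

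RNA was sequenced from 3T3-L1 cells, a mouse preadipocyte line, infected with a lentivirus carrying a scrambled shRNA (C cells) or an shRNA against the homeodomain factor Prep1 (P cells) and selected in puromycin. Cells were collected at day −2, before induction, and at day 1, after induction with dexamethasone (a glucocorticoid, at 1 μM), IBMX (which raises cAMP, at 0.5 mM) and insulin (at 1 μg/ml). The growth serum was BCS and the induction medium held FBS, so that day, serum and hormones changed together and cannot be told apart. Each condition had 2 biological replicas, whose separate infection is not stated, and P cells carry a single shRNA. If the replicas shared an infection, the p-values measure only the spread between cultures or libraries.

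The libraries held between 20428816 and 27614353 counts. Levels are given in CPM, counts scaled to the library size and the TMM factors of edgeR, and a signal of 3 counts corresponds to between 0.107 and 0.160 CPM, counting error only. The replicas of P cells at day −2 stood apart: over 5600 well expressed genes their log2 difference had an SD of 0.795, against 0.121 to 0.261 in the other conditions. Prep1 itself, listed as Pknox1, had 28.1 and 26.5 CPM in C cells and 17.3 and 18.3 CPM in P cells at day −2, and 38.1 and 36.5 CPM against 23.6 and 23.8 CPM at day 1. It was thus lower in every P library than in the C libraries of its day, with P/C log2 ratios of −0.62 (adjusted p = 0.0558 in the edgeR test) and −0.65 (adjusted p = 0.0575), short of the ratio threshold used here. All 10 preadipocyte or fibroblast markers were detected, and their summed level was between 19788 and 21059 CPM in C cells at day −2, between 25372 and 81512 CPM in P cells before induction, between 32106 and 38002 CPM in induced C cells, and 22973 and 22976 CPM in induced P cells. The summed level of 8 fat cell markers was 80.7 and 80.9 CPM in C cells and 236 and 247 CPM in P cells at day −2, and 186 and 187 CPM against 584 and 627 CPM at day 1, with Lep at 0 in both C libraries of day −2. Most of this sum was Lpl, at 58.6 and 57.7 CPM in C and 183 and 200 CPM in P cells at day −2, while Pparg had 19.2 and 19.5 CPM against 12.1 and 21.2 CPM. Fabp4 went from 2.07 and 2.35 to 0.789 and 1.39 CPM at day 1 in C cells, and from 28.4 and 19.8 to 67.4 and 74.3 CPM in P cells. By the calls defined below, induction in C cells called 3 of 7 tested markers higher and 1 lower, where 10.7% and 9.68% of all genes were. In P cells it called 7 higher, where 7.65% of all genes were. In P against C cells 5 were called higher at day −2, where 4.83% of all genes were, and 5 at day 1, where 4.06% were called in either direction. Markers of leukocytes, endothelial cells and epithelial cells summed to at most 8.33, 1.86 and 3.43 CPM. The part of the fat cell program in the annexin levels was not tested, and in these bulk samples fewer expressing cells and less RNA per cell cannot be told apart.

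The summed annexin RNA was lower after induction in C and in P cells. In C cells the sum of the 10 genes was 3374 and 3232 CPM at day −2, and 1597 and 1524 CPM at day 1. In P cells it was 2589 and 2989 CPM at day −2, and 1269 and 1306 CPM at day 1. For this sum the libraries of the days do not overlap. The sum is weighted by members with many counts, such as Anxa2, which had a mean of 1284 CPM in C cells at day −2. As a share of all counts, without TMM, the mean went from 0.348% to 0.153% in C cells and from 0.260% to 0.135% in P cells. The log2 ratio by induction was below 0 for 8 of the 10 members in C and in P cells and above 0 for Anxa8 and Anxa9, and with library totals in place of TMM the −0.13 of Anxa11 in P cells became 0.05. Levels of different annexins were not ranked, since transcript lengths were not used here.

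**Figure D1:**
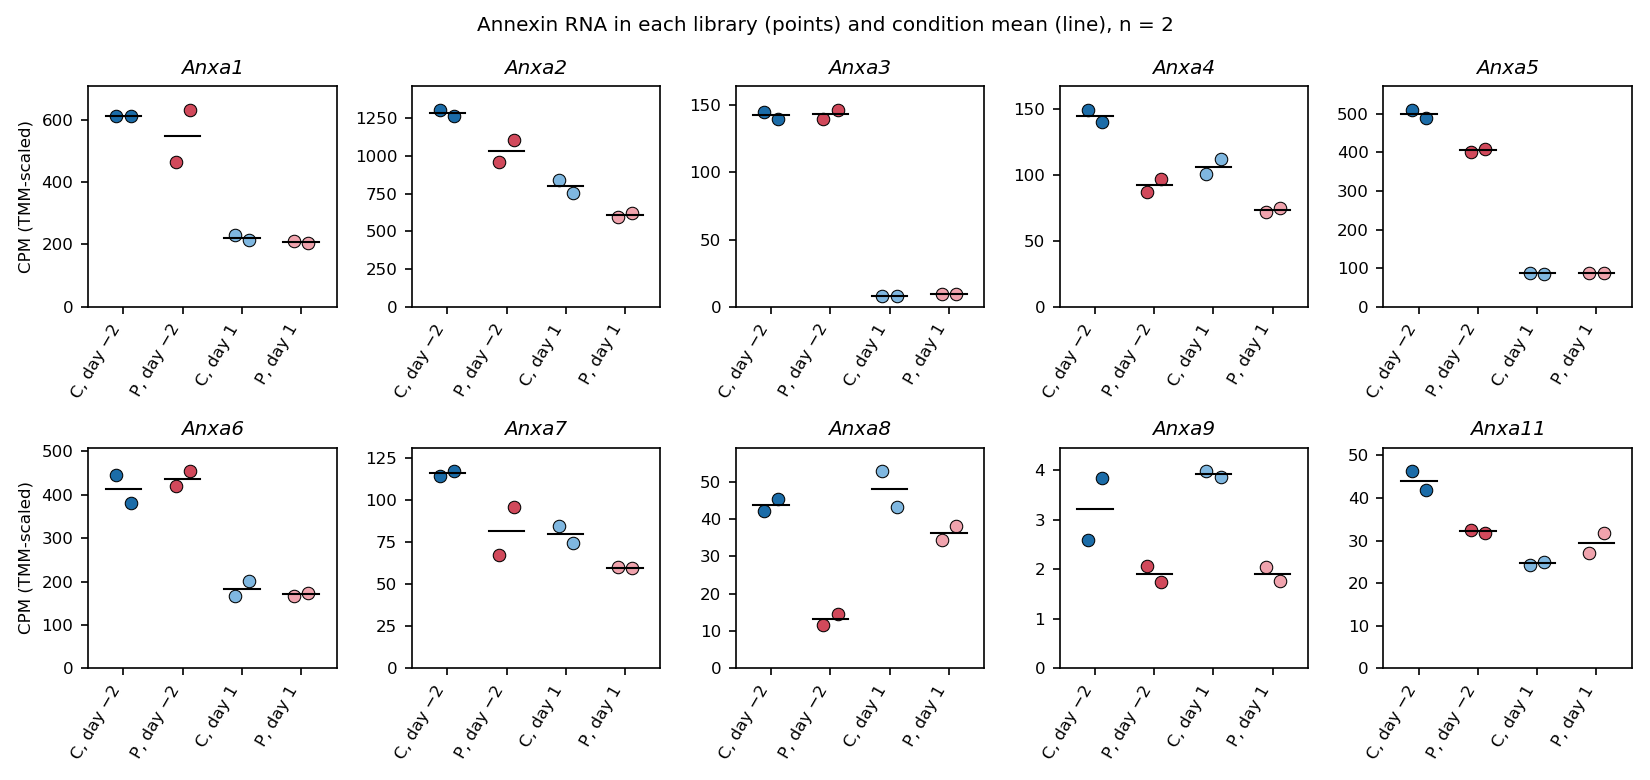
CPM of each annexin gene (vertical axes, linear and different for each gene, starting at 0) in the 4 conditions (horizontal axes). Points are libraries and lines the means of 2 replicas; Anxa3 fell from 142 to 8.03 CPM in C cells, while Anxa8 was lowest in P cells at day −2, with 11.8 and 14.7 CPM.

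A gene was called when its adjusted p-value over all genes was under 0.1 in edgeR's quasi-likelihood test (Benjamini-Hochberg) with a ratio beyond 2 or 0.5. Day 1 was compared with day −2 within C and within P cells, for the change over induction as a whole, and the cells with the Prep1 shRNA were compared with those with the scrambled shRNA on each day. By induction in C cells, 4 of the 10 annexins were called lower and none higher, where 9.68% of all genes tested were called lower and 10.7% higher. Without the ratio threshold, 8 had an adjusted p under 0.1, all of them lower, beside 17.4% of all genes called lower in that way. In P cells 4 annexins were called lower and 1 higher, where 10.4% and 7.65% of all genes were. Without the ratio threshold 5 were lower in P cells, beside 17.4% of all genes. The members called lower were the same in C and P cells, namely Anxa1, Anxa3, Anxa5 and Anxa6, and the member called higher in P cells was Anxa8. The median log2 ratio of the 10 genes was −0.76 in C cells and −0.60 in P cells, while that of all genes tested was −0.01 and 0.02. Set against C cells, P cells had 1 annexin called lower at day −2 and none called higher, where 2.15% and 4.83% of all genes were. Without the ratio threshold 2 were lower, beside 3.72% of all genes. At day 1 edgeR called no annexin for P against C, where 4.06% of all genes were called. Without the ratio threshold the count was also 0, beside 6.15% of all genes. By DESeq2, 1 annexin was called at day 1, namely Anxa9, where DESeq2 called 5.41% of all genes. The median P/C log2 ratio of the 10 genes was −0.38 at day −2 and −0.25 at day 1, while that of all genes was 0.01 on each day. The comparisons of a day with a day and of P with C cells share libraries, and their values are given side by side for each gene.

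**Figure D2:**
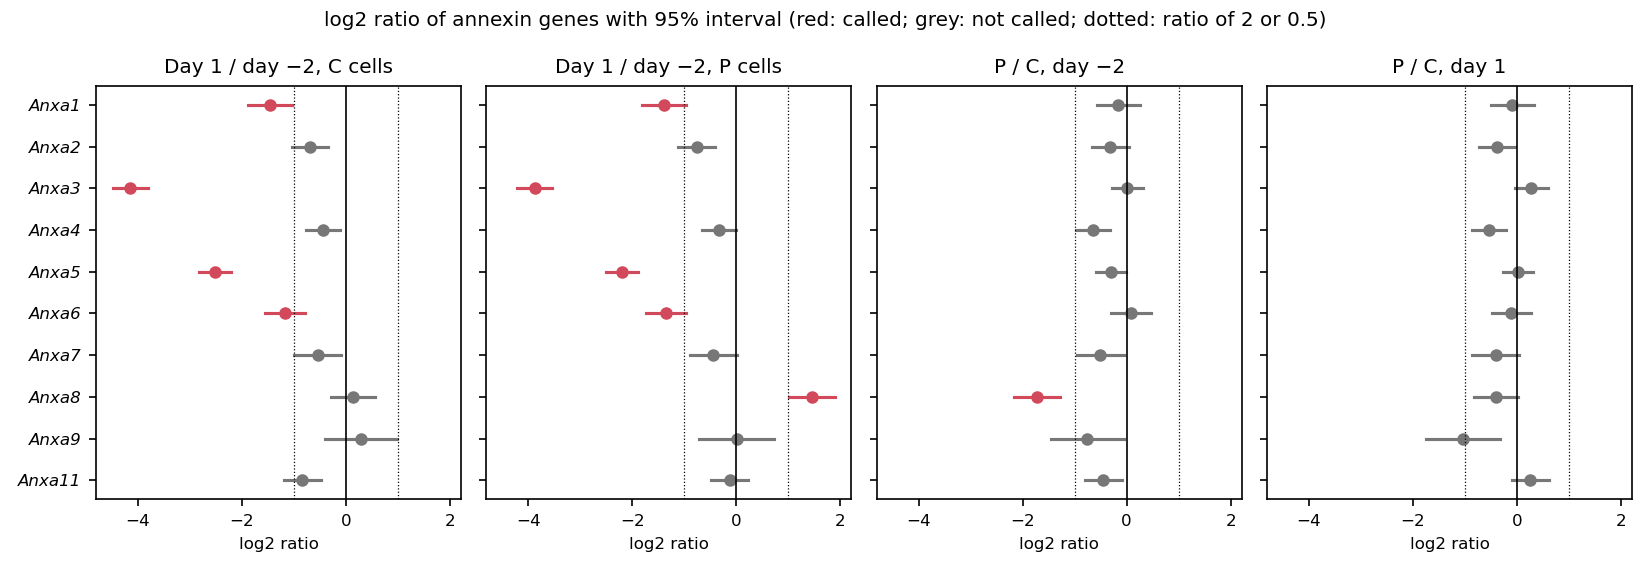
log2 ratio (horizontal axes) of each annexin gene (rows) in the 4 comparisons, with 95% intervals from the edgeR fit. Red points were called and grey points were not; induction called Anxa1, Anxa3, Anxa5 and Anxa6 lower in C and in P cells, and Anxa8 is the gene called in P against C cells at day −2.

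Anxa3, Anxa4, Anxa5 and Anxa8 have short tails and were first known as anticoagulant proteins, since they cover the phospholipids on which clotting factors assemble. Anxa3 (NCBI gene 11745) had 145 and 140 CPM in C cells and 140 and 147 CPM in P cells at day −2. After induction it had 8.13 and 7.92 CPM in C cells and 9.96 and 9.48 CPM in P cells. P and C cells overlapped at day −2, and each day 1 library was far below every day −2 library. The level fell 17.7-fold in C cells, which is −4.15 on the log2 scale (standard error, SE, 0.14), and 14.7-fold in P cells, which is −3.88 (SE 0.14). Its P/C log2 ratio was 0.01 at day −2 (95% interval −0.29 to 0.31) and 0.28 at day 1 (−0.04 to 0.59), and neither was called. With library totals the day −2 value became −0.18.

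Anxa5 (NCBI gene 11747), the phosphatidylserine-binding annexin widely used as a probe for dying cells, had 510 and 488 CPM in C cells and 402 and 408 CPM in P cells at day −2. Induced cells had 88.6 and 86.0 CPM (C) and 89.0 and 88.1 CPM (P). The P libraries were below the C libraries at day −2, and at day 1 the cells overlapped. Anxa5 fell 5.72-fold in C cells (log2 ratio −2.52, SE 0.13) and 4.57-fold in P cells (−2.19, SE 0.13). The difference between P and C cells at day −2 was −0.30 on the log2 scale (95% interval −0.60 to −0.01) and was not called, with an adjusted p of 0.190 in the edgeR test. At day 1 it was 0.02 (95% interval −0.28 to 0.32).

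Anxa4 (NCBI gene 11746), an annexin abundant in many epithelia, had 149 and 140 CPM in C cells and 87.1 and 97.0 CPM in P cells at day −2. The day 1 libraries had 100 and 112 CPM in C cells and 71.5 and 74.7 CPM in P cells. No conditions overlapped, and the order from high to low was uninduced C, induced C, uninduced P and induced P cells. Its P/C log2 ratio was −0.65 at day −2 (SE 0.14, adjusted p = 0.0449 in the edgeR test), short of the ratio threshold, and −0.54 at day 1 (SE 0.14, adjusted p = 0.101). By induction it was −0.45 in C cells (adjusted p = 0.0540 in the edgeR test) and −0.33 in P cells (adjusted p = 0.131).

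Anxa8 (NCBI gene 11752), which binds membranes of late endosomes and is best known from epithelia, was the member called in P against C cells at day −2. At that time it had 42.1 and 45.4 CPM in C cells and 11.8 and 14.7 CPM in P cells, from 1056 and 1024 counts against 221 and 412 counts. At day 1 it had 52.8 and 43.1 CPM in C cells and 34.5 and 38.1 CPM in P cells. The C libraries of the days overlapped, the P libraries at day 1 lay just below them, and the P libraries at day −2 were well below all others. Before induction Anxa8 was 3.30-fold lower in P than in C cells, which is −1.72 on the log2 scale (SE 0.19, adjusted p = 0.0044 in the edgeR test). This value ran from −1.90 to −1.56 with each library left out in turn, and the call was lost, at an adjusted p of 0.117, in the edgeR fit of the day −2 libraries alone. In P cells it rose 2.74-fold by induction, which is 1.45 on the log2 scale (SE 0.19), while the value in C cells was 0.13 (95% interval −0.29 to 0.56). At day 1 the P/C log2 ratio was −0.40 (95% interval −0.83 to 0.02, adjusted p = 0.340 in the edgeR test) and was not called.

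Anxa1, Anxa2 and Anxa11 carry tails that bind S100 proteins, with S100a11, S100a10 and S100a6 as their known partners. Anxa1 (NCBI gene 16952, lipocortin 1), known as a glucocorticoid-induced inhibitor of inflammation in leukocytes, had 613 and 612 CPM in C cells and 465 and 632 CPM in P cells at day −2. After induction it had 230 and 214 CPM in C cells and 212 and 205 CPM in P cells. P and C cells overlapped at day −2, the P replicas being far apart. The level fell 2.76-fold in C cells (log2 ratio −1.46, SE 0.18) and 2.63-fold in P cells (−1.39, SE 0.18), in a medium with dexamethasone. Without either replica of P cells at day −2, the value in P cells was −1.61 or −1.15. Its P/C log2 ratio was −0.16 at day −2 and −0.09 at day 1, neither of them called. The day −2 value became −0.40 or 0.05 without either P replica of that day, and the day 1 value 0.01 with library totals.

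Anxa2 (NCBI gene 12306), which forms a tetramer with S100a10 that binds plasminogen and its activator tPA, had 1306 and 1263 CPM in C cells and 961 and 1107 CPM in P cells at day −2. The induced cells had 838 and 757 CPM in C cells and 594 and 624 CPM in P cells. The 4 conditions did not overlap, with P below C cells on each day and day 1 below day −2. The log2 ratio by induction was −0.69 in C cells (SE 0.15, adjusted p = 0.0161 in the edgeR test) and −0.76 in P cells (SE 0.15, adjusted p = 0.0135), both short of the ratio threshold. Between P and C cells the log2 ratio was −0.31 at day −2 and −0.39 at day 1, with adjusted p of 0.234 and 0.250 in the edgeR test. The reference gene list holds a pseudogene named after Anxa2 that the count table does not list, and how reads shared with such copies were counted is not stated, so the absolute level of Anxa2 is uncertain.

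Anxa11 (NCBI gene 11744), which tethers RNA granules to lysosomes, had 46.3 and 41.8 CPM in C cells and 32.6 and 31.9 CPM in P cells at day −2. At day 1 it had 24.3 and 25.0 CPM in C cells and 27.1 and 31.8 CPM in P cells. P cells were thus below C cells at day −2 and above them at day 1. By induction the log2 ratio was −0.84 in C cells (SE 0.15, adjusted p = 0.00852 in the edgeR test), short of the ratio threshold, and −0.13 in P cells (95% interval −0.49 to 0.23). Its P/C log2 ratio was −0.45 at day −2 (adjusted p = 0.131 in the edgeR test) and 0.26 at day 1 (adjusted p = 0.500).

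Anxa6 (NCBI gene 11749), a double-length annexin that links membranes to actin and cholesterol-rich domains, had 445 and 380 CPM in C cells and 419 and 454 CPM in P cells at day −2. After induction it had 166 and 201 CPM in C cells and 168 and 173 CPM in P cells. P and C cells overlapped on each day. The level fell 2.25-fold in C cells (log2 ratio −1.17, SE 0.16) and 2.56-fold in P cells (−1.36, SE 0.16). The P/C log2 ratios of 0.08 at day −2, −0.10 with library totals, and −0.11 at day 1 were not called. Anxa7 (NCBI gene 11750, synexin), a long-tailed annexin that aggregates secretory vesicles, had 114 and 117 CPM in C cells and 67.3 and 95.7 CPM in P cells at day −2, and 84.6 and 74.4 CPM against 60.3 and 59.5 CPM at day 1. The log2 ratio of Anxa7 by induction was −0.54 in C cells (adjusted p = 0.0788 in the edgeR test) and −0.45 in P cells (adjusted p = 0.140), and the P replicas at day −2 lay farther apart than its difference between days in P cells. In P against C it was −0.50 at day −2 (adjusted p = 0.162 in the edgeR test) and −0.41 at day 1 (adjusted p = 0.362). Without replica 1 or replica 2 of P cells at day −2, the value of Anxa7 by induction in P cells was −0.69 or −0.16, and that for P/C at day −2 was −0.26 or −0.79.

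Anxa9 (NCBI gene 71790), an atypical annexin whose calcium-binding sites are not conserved, had the fewest counts, between 38 and 101 in a library. It had 2.59 and 3.85 CPM in C cells and 2.08 and 1.75 CPM in P cells at day −2, and 3.99 and 3.86 CPM against 2.05 and 1.77 CPM at day 1. The P libraries lay below the C libraries on each day. The P/C value was −0.75 on the log2 scale at day −2 (SE 0.30, adjusted p = 0.178 in the edgeR test) and −1.03 at day 1 (SE 0.30, adjusted p = 0.133), so that neither passed. Without replica 1 or replica 2 of C cells at day −2, the day −2 value of Anxa9 was −1.01 or −0.44. By DESeq2 the day 1 value passed, at an adjusted p of 0.0696, where DESeq2 called 5.41% of all genes. Without replica 1 or replica 2 of P cells at day −2, the day 1 value of Anxa9 was −1.06 or −1.04. At these counts its log2 ratio by induction was 0.29 in C cells (95% interval −0.40 to 0.97) and 0.01 in P cells (−0.71 to 0.73).

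Whether the response to induction differed was tested in the same fit as the response of P cells minus that of C cells, with a call at an adjusted p under 0.1 and no threshold on size. Among the annexins 1 was called, Anxa8, with a response higher by 1.32 on the log2 scale in P than in C cells (SE 0.26, adjusted p = 0.0755 in the edgeR test). Of all genes tested, 0.435% were called with a higher response in P cells and 1.93% with a lower one. Without either C replica at day −2, either C replica at day 1 or either P replica at day 1, the difference was 1.18 to 1.46. The call was lost in each of these fits, which also called a smaller share of all genes, so the loss does not single out a library. Without replica 1 or replica 2 of P cells at day −2 the difference was 1.14 or 1.49. Those fits hold no spread for the condition whose replicas stood apart, so their p-values are not given. With library totals in place of TMM the adjusted p was 0.103 in the edgeR test. Anxa11 had the next largest difference, 0.71 (95% interval 0.20 to 1.21, adjusted p = 0.215 in the edgeR test). It passed by DESeq2, at an adjusted p of 0.0954, where DESeq2 called 6.97% of all genes. Without replica 1 or replica 2 of P cells at day −2 the difference of Anxa11 was 0.69 in each case. The other 8 differences lay between −0.28 and 0.32 and were not called, and library totals raised the median difference of all genes to 0.29 and turned those of Anxa2, Anxa6 and Anxa9 to above 0. Without replica 2 of P cells at day −2, the differences of Anxa1, Anxa5 and Anxa7 were 0.31, 0.34 and 0.38.

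**Figure D3:**
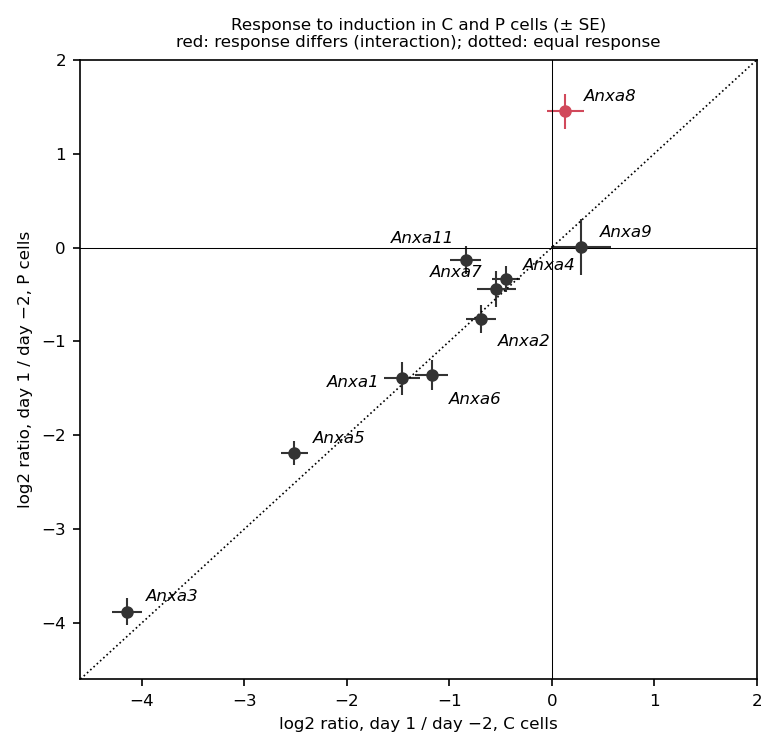
log2 ratio of day 1 to day −2 for each annexin gene in C cells (horizontal axis) and in P cells (vertical axis), with SEs. On the dotted line the responses are equal; Anxa8, in red, is the gene with a called difference of 1.32, and Anxa3 lies at the far end with −4.15 and −3.88.

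Over the 8 libraries the Pearson correlation of log2 CPM was 0.99 between Anxa3 and Anxa5, 0.98 between Anxa3 and Anxa6 and 0.99 between Anxa1 and Anxa5, genes that all differed between the days. For the deviations from the condition means, the values of these pairs were 0.79, 0.15 and 0.41. Over all 45 pairs of annexins the median was 0.65, and the lowest value was −0.56, between Anxa6 and Anxa8. These values describe 8 libraries that fall into 4 conditions, and the libraries of a condition share its day and its cells. Of 9143 other genes above 3 on the log2 CPM scale, those most like Anxa3 were Frmd4a, Asap1 and Slc20a1, with correlations from 0.997 to 0.999. Those most like Anxa5 were Npnt, Gmpr and Abcb1b, those most like Anxa1 were Elovl6, Dhcr7 and F2r, and those most like Anxa6 were Gars, Stard13 and Limd2, with correlations from 0.989 to 0.997. Anxa8 was most like Slc1a3, Afmid and Rdh10, with correlations from 0.977 to 0.983.

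Of 8 genes tested from a list of S100 proteins and the large scaffold Ahnak, induction called 1 higher and 1 lower in C cells, and 1 higher and 1 lower in P cells, with median log2 ratios of −0.46 and −0.23 beside −0.01 and 0.02 for all genes. The shares of all genes called, given above, were for C cells 10.7% higher and 9.68% lower, for P cells 7.65% and 10.4%, so that these counts lie near the background. S100a16 went from 3.32 ± 0.315 to 7.57 ± 1.52 CPM in C cells and from 0.356 ± 0.0515 to 2.51 ± 0.346 CPM in P cells (SD, n = 2 each). It was lower in P than in C cells by a log2 ratio of −3.19 at day −2 and −1.59 at day 1. Its libraries of P cells at day −2 held 6 and 11 counts, so the size of ratios with that condition is poorly determined. S100a4 fell in C cells by 1.07 on the log2 scale, and S100a6 in P cells by 1.13, a call that was lost without replica 1 of P cells at day −2 (−0.90). S100a10 and S100a11 were chosen after their values were seen, as partners of Anxa2 and Anxa1. S100a10 had 711 ± 54.3 and 704 ± 161 CPM in C cells at day −2 and day 1, and 398 ± 296 and 951 ± 124 CPM in P cells (SD, n = 2 each). Its induction was not called in either. In P cells its log2 ratio of 1.26 became 0.64 or 2.34 without replica 1 or replica 2 at day −2. S100a11 had log2 ratios by induction of −0.83 in C cells and −0.06 in P cells, not called. In P against C cells at day −2, 1 gene of the list was called lower and none higher, where 2.15% and 4.83% of all genes were. The P/C log2 ratio of S100a10 at day −2, −0.84 and not called, became −0.22 or −1.92 without replica 1 or replica 2 of P cells.

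Most tested genes of the plasminogen system, which meets annexin A2 at the cell surface, were called lower by induction. Of 7 genes tested, 4 were called lower and 1 higher in C cells, and 5 lower and none higher in P cells, with median log2 ratios of −2.14 and −2.20, where 9.68% and 10.4% of all genes were called lower. The lists were, like the members, drawn up with results of these data known. Plau, the urokinase-type activator, went from 31.5 ± 0.904 to 2.24 ± 0.0421 CPM in C cells and from 31.6 ± 0.282 to 1.21 ± 0.524 CPM in P cells (SD, n = 2 each), log2 ratios of −3.81 and −4.69. Its receptor Plaur had log2 ratios of −3.27 and −4.28. Serpinb2, an inhibitor of plasminogen activators, had −5.28 and −5.51, from 1 to 6 counts in a day 1 library, so the size is poorly determined. Plat, which codes for tPA, fell by 2.14 in C cells and by 2.20 in P cells on the log2 scale, and was also lower in P than in C cells at day −2 (−1.48) and at day 1 (−1.54). Between P and C cells, 2 genes of the list were called higher and 1 lower at day −2, where 4.83% and 2.15% of all genes were, and 2 lower at day 1, where 2.23% were. The P/C log2 ratio of Serpinb2 at day −2, −0.96 and not called, became −0.59 or −1.48 without replica 1 or replica 2 of P cells.

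Of 15 genes tested from a list for membrane repair and caveolae, 3 were called lower in C cells and 5 in P cells by induction, and none higher, with median log2 ratios of −0.36 and −0.39, where 9.68% and 10.4% of all genes were called lower. Dysf, the dysferlin gene of membrane repair, had 77.0 ± 8.18 and 134 ± 47.9 CPM in C and P cells at day −2 (SD, n = 2 each) and fell by 2.26 in C cells and by 3.77 in P cells on the log2 scale. Its relative Myof had log2 ratios of −1.33 in C cells, called, and −0.9998 in P cells, not called. The caveolar gene Cavin2 was called too (−1.47 in C and −2.60 in P cells). Cavin1 was called in P cells (−1.57) through 1 library, since its level at day −2 was 2263 CPM in replica 1 and 648 CPM in replica 2, beside 482 and 498 CPM at day 1, and without replica 1 the value was −0.41 and not called. The count of 5 in P cells includes Cavin1 and so leans on replica 1 of P cells at day −2. None was called in P against C cells. The P/C log2 ratio of Cavin1 at day −2, 1.31, became 0.15 or 1.94 without replica 1 or replica 2 of P cells. Of 9 genes of other calcium-dependent lipid-binding proteins, induction called 1 higher and 1 lower in C cells, and 2 lower in P cells, with median log2 ratios of −0.35 and −0.21, counts near the shares of all genes. Pla2g4a, the cytosolic phospholipase A2 that Anxa1 is known to inhibit, had log2 ratios of −1.71 in C and −1.91 in P cells (−1.20 without replica 2 of P cells at day −2), and the synaptotagmin gene Syt11 rose by 1.61 in C cells. Esyt1, an extended synaptotagmin, fell by 1.05 in P cells, a call lost without replica 1 of P cells at day −2 (−0.65), and the copine gene Cpne2 was lower in P than in C cells at day 1 (−1.21). The induction of Syt11 in P cells, 0.97 and not called, became 1.05 or 0.88 without replica 1 or replica 2 of P cells at day −2. Syt11 was also called higher in P than in C cells at day −2 (1.28), as 1 of the 9 genes, where 4.83% of all genes were.

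The formyl peptide receptor genes, of which Fpr2 is the known receptor of Anxa1, had at most 3 counts in a library for Fpr1, Fpr2, Fpr3 and Fpr-rs3 and did not pass the filter. Known direct targets of glucocorticoid were called higher by induction for 7 of 8 genes in C cells and in P cells, where 10.7% and 7.65% of all genes were. Their median log2 ratios were 2.79 and 2.02, and among the 7 were Tsc22d3 (log2 ratio 4.05 in C and 3.24 in P cells), Zbtb16 (4.29 and 5.26), Mt2 (3.52 and 4.20) and Per1 (2.95 and 1.83). Sgk1 was not called and went from 304 ± 54.8 to 228 ± 65.8 CPM in C cells. In P cells it went from 169 ± 7.21 to 129 ± 6.32 CPM (SD, n = 2 each). Anxa1 was called lower in the same libraries in which these 7 genes were called higher. The part of dexamethasone in these changes was not tested, since day, serum and hormones changed together.

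**Figure D4:**
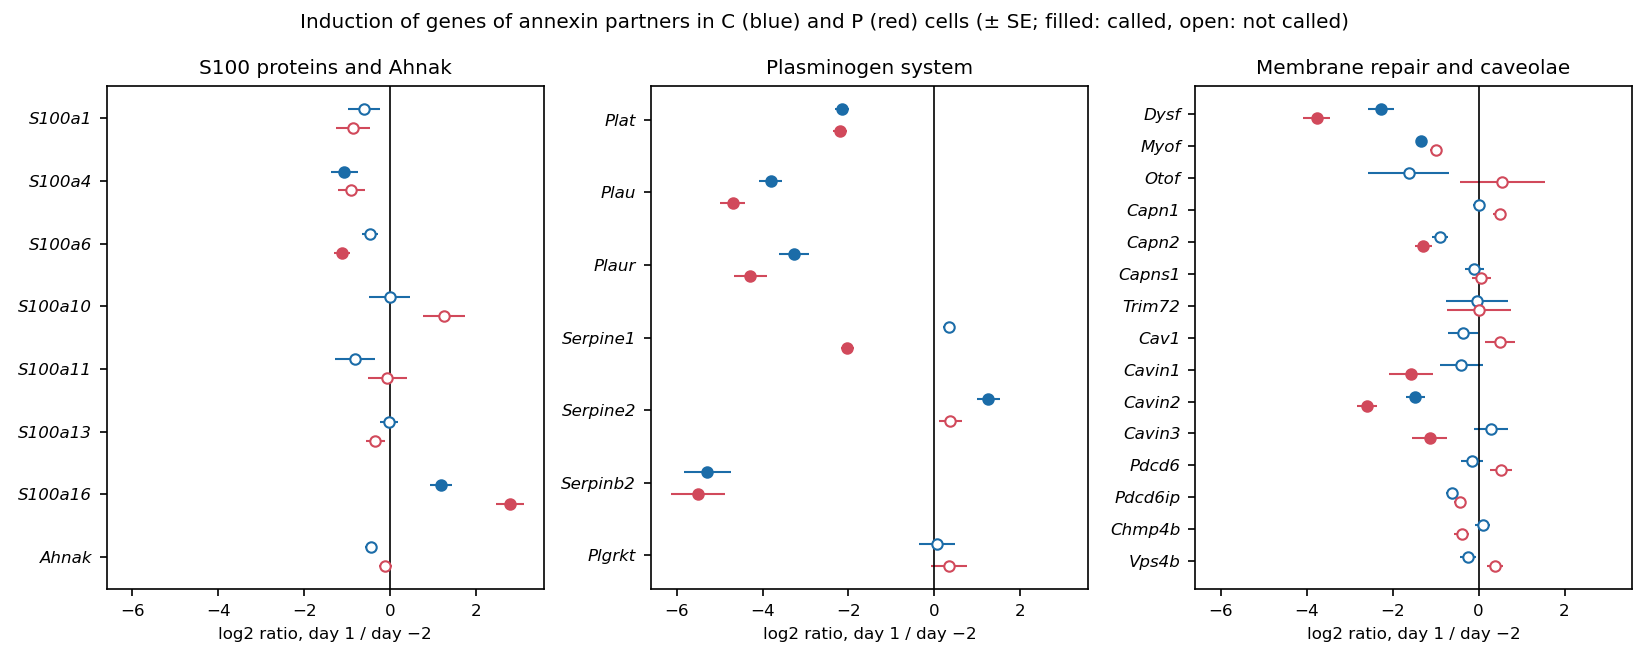
log2 ratio of day 1 to day −2 (horizontal axes) with SEs for genes of 3 lists (rows) in C cells (blue) and P cells (red), with filled points for called genes. Plat, Plau, Plaur and Serpinb2 lie left of 0 in C and P cells, while S100a16 lies right of 0 with 1.18 and 2.78. The value of S100a16 in P cells rests on 6 and 11 counts at day −2.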

How the data were processed

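Ion Torrent reads were cleaned by the authors with the FASTX-Toolkit, aligned to mm9 with TopHat (TopHat2 2.0.9 in the submitters' processing notes) and counted per NCBI gene with R libraries on the UCSC refGene table. The authors deposited these whole-number counts, without normalization, for 24013 genes in 8 libraries, and the handling of strand and of reads with more than 1 match is not stated. Symbols were matched for 23929 genes through a RefSeq list (GRCm38.p6) that was used for names alone. Its lengths are genomic spans, so levels per length were not computed.

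Genes were kept with filterByExpr and scaled by TMM, and edgeR 4.0.16 (R 4.3.3) fitted all 8 libraries together by quasi-likelihood, each condition with its own mean. Standard errors come from the F statistics. The spread of a gene was estimated over all 4 conditions together, although the replicas of P cells at day −2 stood farther apart (SD 0.795, against 0.121 to 0.261). The SEs, intervals and p-values of comparisons with that condition can therefore understate its spread. All p-values are two-sided, and those of the main fit are adjusted over 13339 genes. In the alternatives they are adjusted over the genes tested in that fit. For 2 libraries against 2, the smallest p of an exact permutation test is 0.333, so none was run. The edgeR step was tested on simulated data with the same spread in every condition, so that test does not cover the wider spread of P cells at day −2. The study used DESeq, and DESeq2 1.42.0 was an alternative here.

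The members and lists were chosen with earlier results of these data known. All 10 members are named. From each list, up to 4 called genes with the largest log2 ratio by induction in C cells or in P against C cells at day −2 are named. Likeness was measured as the correlation of log2 CPM (prior count 2), with 3 genes per called member. The alternatives were DESeq2 and its size factors, library totals, other filters and thresholds, fits of single comparisons, a replica block and leaving out each library.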

Additional observations from a re-analysis of the deposited data

Results flagged for a closer look

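Anxa8 was the annexin whose induction in P cells differed from that in C cells by a test of the difference itself. The difference was 1.32 on the log2 scale, higher in P cells, with an adjusted p of 0.0755 in the edgeR test. In P cells each library at day 1 was above each library at day −2, while the C libraries of the days overlapped. The call was lost when any of the C libraries or of the P libraries at day 1 was left out. In these fits the difference was 1.18 to 1.46, and a smaller share of all genes was called. With library totals the call was also lost, at an adjusted p of 0.103 in the edgeR test. Groups of 2 replicas are too small for a test of outlying samples.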

How the results depend on the processing

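With 2 replicas per condition, the calls of Anxa1, Anxa3, Anxa5 and Anxa6 by induction in C and P cells, and that of Anxa8 in P cells, were kept under every alternative run for them, and no call changed its direction. Without a ratio threshold, 8 annexins were called by induction in C cells and 2 between P and C cells at day −2. In that comparison 0 were called in the fit of its own conditions, where 0.637% of all genes were, against 6.98% in the fit of all libraries. At day 1, 1 was called in P against C cells by DESeq2, with at least 10 counts in every library and with its own conditions (5.41%, 3.77% and 7.16% of all genes), and 0 to 1 with each library left out (0.446% to 7.09%). In the interaction 2 were called by DESeq2, where 6.97% of all genes were, 0 with library totals (2.04%), 0 at an adjusted p under 0.05 (1.30%), and 0 to 5 with each library left out, the 5 where 8395 of 13982 genes were called. With library totals the median log2 ratio over all genes became −0.11 and 0.19 by induction in C and P cells, and −0.18 and 0.11 for P/C at day −2 and day 1, and values of annexins that were not called changed sign. The P/C log2 ratio of Prep1 at day −2 was −0.62 without a filter on low counts (adjusted p = 0.118 in edgeR), −0.63 with its own conditions (0.374) and −0.62 at the stricter threshold of 0.05 (0.0558), and −0.67 to −0.57 with each library left out. At day 1 it was −0.55 with library totals (0.151), −0.67 without a filter (0.141), and −0.65 at the stricter threshold (0.0575), and −0.697 to −0.648 with each library left out. On each day the adjusted p of Prep1 was no longer under 0.1 when any C library, or any P library of day 1, was left out.

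The replica numbers of the labels are not said to mark shared cultures. The correlation of deviations over all genes was from −0.36 to 0.21 between conditions, so the numbers were not taken as pairs. In a fit with a block for the number, the interaction called 0 annexins (Anxa8: 1.32, adjusted p = 0.185 in edgeR), and 0 when the day 1 numbers of P cells were swapped, a setting added after the data were seen, as was the crossing of all day 1 numbers, which called Anxa8 as without a block. For Prep1 the P/C log2 ratio was −0.62 at day −2 (adjusted p = 0.131 in edgeR) and −0.65 at day 1 (0.148) with the block, and −0.62 (0.124) and −0.65 (0.142) when swapped. The block changed no other call of these genes. The cause of these changes was not tested. Shares per kilobase of each annexin were not run for lack of transcript lengths. At 38 to 101 counts, Anxa9 has the least depth of the members.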
